A study of Mus musculus with 3 samples.

Results

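Molecular chaperones and heat shock genes were examined in RNA-seq libraries of mouse T-helper 1 cells. The set comprised 42 genes of the HSP90, HSP70, HSP110, HSP40, HSP60, small HSP, TRiC and endoplasmic reticulum (ER) families with their co-chaperones and heat shock factors. They were chosen by gene symbol from a fixed list, and all 42 were found among the 50600 genes of the count tables, of which 21764 were protein-coding. The cells were primary T-helper 1 cells of mouse strain C57BL/6NJ, with a differentiation protocol cited but not used here, in 1 group of 3 biological replicates. Each replicate has its own biosample record but all point to the same donor record, sex and age were not recorded, and the labels give neither a treatment nor a control group. The counted alignment files are tagged 16 hr in the headers, with no such time in the labels. Members were therefore compared with each other within a library, with the 3 libraries as the measure of error.

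Chaperones bind unfolded or partly folded proteins and release them after cycles of ATP hydrolysis, and HSP40 proteins and nucleotide exchange factors set the pace of the HSP70 cycle. Constitutive forms serve protein synthesis in unstressed cells, while stress-induced forms are transcribed by the heat shock factor HSF1 when unfolded proteins accumulate in the cytosol. The ER has its own HSP70, HSP90, lectin chaperones and disulfide isomerases, whose genes respond to the unfolded protein response. T cells that leave the resting state enlarge and synthesise much protein, and HSP90 holds several T cell kinases, Lck among them, in an active state.

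Replicate 1 had 4764598 counts over all genes, replicate 2 had 2568928 and replicate 3 had 2815439. Counting intervals and floors given below cover counting error only. TPM, a length-normalised abundance, divides each count by the length of the gene's merged exons and scales each library to the same sum. Genes whose exons overlap exons of the opposite strand held 56.1%, 60.3% and 71.6% of all counts in replicates 1, 2 and 3. Protein-coding genes with exons outside every opposite-strand gene, called clear below, held 28.7%, 24.6% and 15.6% of TPM in the same libraries. The T cell genes Cd3e, Cd3g, Cd4, Trac and Trbc2 all reached 1 TPM in each library (5 of 5; 24.2 to 448 TPM). Of Cd79a, Lyz2, Ncr1 and Cd8a, which mark B cells, myeloid cells, NK cells and CD8 T cells, the last 3 had 0 counts in each library and Cd79a had 27, 0 and 17. Xist had 807, 1110 and 4 counts and the Y-linked gene Ddx3y had 161, 0 and 81 in replicates 1, 2 and 3, so the libraries differ in these genes despite the shared donor record. Their part in the spread of the chaperone genes was not tested.

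Chaperone genes were among the coding genes of highest TPM. The strand that the library kit keeps is not given in the sources used here, so the strand of the reads behind these levels is not known. Hsp90ab1, the constitutive cytosolic HSP90, had 5325, 4180 and 3128 TPM in replicates 1, 2 and 3 and ranked 3 among the 21764 coding genes by mean TPM. It alone held 29.4% ± 2.06 of the counts of all 42 members (SD, n = 3). Hspa8, the constitutive HSP70, ranked 51 (1061 TPM ± 387; SD, n = 3), Hspd1, the mitochondrial HSP60, ranked 83 (801 ± 326), Calr, the ER lectin calreticulin, ranked 98 (665 ± 172), and Hsp90aa1, the stress-induced HSP90, ranked 101 (633 ± 234). Of the 42 members, 12 lay in the top 1% of coding genes and 26 in the top 5%. Genes that reached 1 TPM in each of the 3 libraries are called detected below. They were 38 of 42 members (90.5%) and 8668 of 21764 coding genes (39.8%). A level of 100 TPM in each library was reached by 19 members (45.2%) and by 579 coding genes (2.66%). Among clear coding genes, the same level was reached by 14 of 30 members (46.7%) and by 228 of 15865 genes (1.44%). The 4 members not detected were Hspa1a, Hspa1b and Hspb1, all known as stress-induced, and Hspa2, an HSP70 known mainly from testis. Together the members held 2.65%, 2.23% and 1.67% of the counts in replicates 1, 2 and 3.

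**Figure D1:**
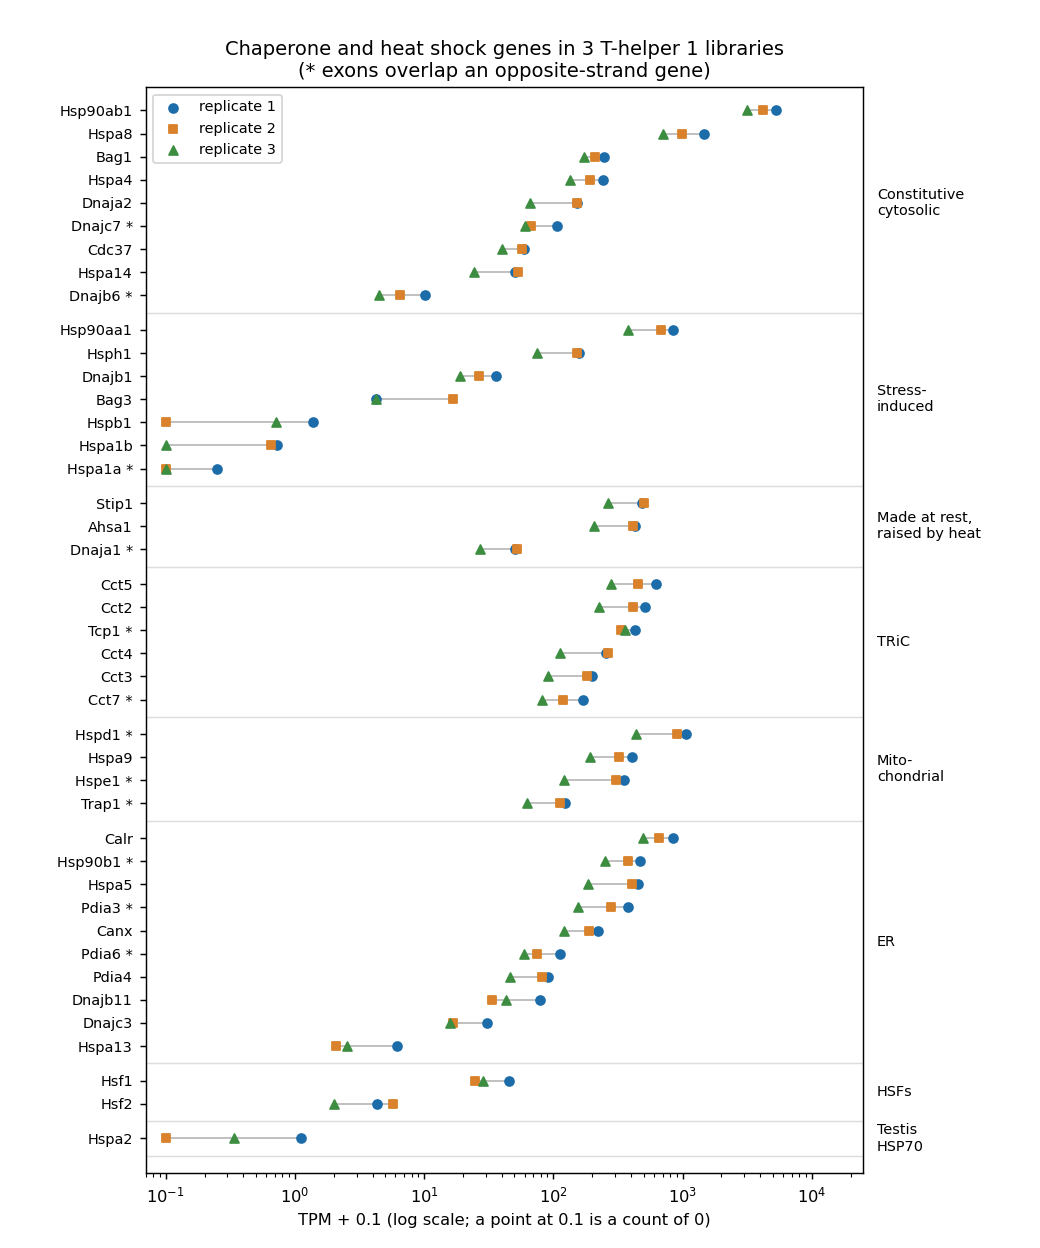
Level of each of the 42 members in replicates 1, 2 and 3 (horizontal axis, TPM + 0.1 on a log scale; symbols, libraries; grey lines, range), grouped by role, with constitutive cytosolic genes at the top. Hsp90ab1 lies highest at 3128 to 5325 TPM, while the stress-induced genes run from Hsp90aa1 down to Hspa1a, which has a count of 0 in replicates 2 and 3.

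Constitutive cytosolic members stood above stress-induced members in the medians of the lists used. The 9 constitutive genes had a median of 124 TPM (range of gene means 6.95 to 4211) and all were detected; the 7 stress-induced genes had a median of 8.28 TPM (0.0498 to 633) and 4 were detected. The difference of the medians of log2(TPM + 1) was 4.89, 3.13 and 3.70 in replicates 1, 2 and 3, or 3.91 ± 0.90 (SD, n = 3), and was above 0 in 3 of 3 libraries. In each library the constitutive median was the value of Dnaja2 and the stress-induced median that of Bag3. The difference and its SD therefore rest on these genes, and Bag3 had only 24, 54 and 17 counts. No p is given for the lists, which were chosen with earlier results of these data known. A separate list of 3 cytosolic genes made at rest and raised by heat was in neither (Dnaja1, Stip1 and Ahsa1; median 349 TPM). The size of the difference depends on that choice, and placing these genes among the stress-induced ones was not tested. The summed level of the 9 constitutive genes was 5975 TPM ± 1667 and that of the 7 stress-induced genes was 797 TPM ± 289 (SD, n = 3), and Hsp90aa1 was the main part of the stress-induced sum.

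In the cytosolic HSP90 pair both genes were abundant and the constitutive one was higher. Hsp90ab1 had 36008, 15991 and 14914 counts in replicates 1, 2 and 3, against 7465, 3390 and 2378 for Hsp90aa1. Per kilobase, Hsp90ab1 was 6.32, 6.18 and 8.22 times as high as Hsp90aa1, with exact 95% counting intervals of 6.17 to 6.48, 5.96 to 6.42 and 7.87 to 8.59. The ratio was higher in replicate 3 than in the other libraries beyond counting error. The mean log2 ratio was 2.78 ± 0.23 (SD, n = 3), above 0 in 3 of 3 libraries. An exact two-sided sign-flip permutation test gave p = 0.25, the smallest p that 3 libraries allow. Log2 ratios of the same sign in all 3 libraries give this p whatever their size, so the test cannot decide the question. Both genes are clear. Of the 50-base stretches of the annotated Hsp90aa1 transcripts, 47.5% also occur in transcripts of genes elsewhere in the genome, chiefly the pseudogene Gm12346, against 3.44% for Hsp90ab1. The counting command in the file headers has no option for reads that map to several places, so the level of Hsp90aa1 is uncertain to that extent.

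In the HSP70 family the constitutive gene dominated. Hspa8 had 14325, 5458 and 4866 counts in replicates 1, 2 and 3. The stress-induced genes Hspa1a and Hspa1b, which lie side by side on chromosome 17, had 1, 0 and 0 counts and 4, 2 and 0 counts. Summed over that pair, Hspa8 was 1922 times as high per kilobase in replicate 1 (exact 95% counting interval 823 to 5920) and 1831 times as high in replicate 2 (507 to 15119). With the principal transcripts as length the ratios were 3453 and 3289. In replicate 3, where the pair had a count of 0, the ratio was 1088 with a floor of 3 counts for the pair. The exact 95% counting interval there began at 884. The mean log2 ratio, with replicate 3 at the floor of 3 counts, was 10.61 ± 0.45 (SD, n = 3) and above 0 in 3 of 3 libraries. The exact two-sided sign-flip permutation test gave p = 0.25, the smallest that 3 libraries allow. As for the HSP90 pair, this p follows from the shared sign alone and cannot decide the question. By counting error a count of 0 for Hspa1a allows up to 0.793 TPM in replicate 2 and 0.636 TPM in replicate 3. Reads of this pair are hard to place: 62.3% of the 50-base stretches of Hspa1b and 60.3% of those of Hspa1a occur in transcripts of other genes, for the most part those of the other gene of the pair. The Hspa1a and Hspa1b counts may therefore be too low, which was not tested. Hspa8 has 37.0% such stretches, so its level is uncertain too. Gm20481, which lies on the opposite strand wholly within the exons of Hspa1a, had 12, 1 and 2 counts in replicates 1, 2 and 3. It covers 564 bases, or 19.0% of those exons, so its counts do not cover the opposite strand over the rest of Hspa1a.

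The HSP110 pair, nucleotide exchange factors of HSP70, was nearly balanced. Hspa4, the constitutive form, had 243, 192 and 134 TPM in replicates 1, 2 and 3. Hsph1, the stress-induced form, had 157, 152 and 74.7 TPM. Per kilobase of merged exons Hspa4 was 1.55, 1.26 and 1.80 times as high as Hsph1, a log2 ratio of 0.61 ± 0.26 (SD, n = 3). The direction depended on the length used, since the merged exons of Hsph1 cover 7266 bases and its principal transcript 3802, against 5528 and 4618 for Hspa4. With the principal transcript as length the ratio was 0.972, 0.791 and 1.13, a log2 ratio of -0.069 ± 0.26, and as plain counts it was 1.18, 0.961 and 1.37. Neither gene was therefore higher on every scale. Both genes are clear and neither shares a 50-base stretch with another gene; the pair was chosen for a ratio after its values were seen and was not tested.

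**Figure D2:**
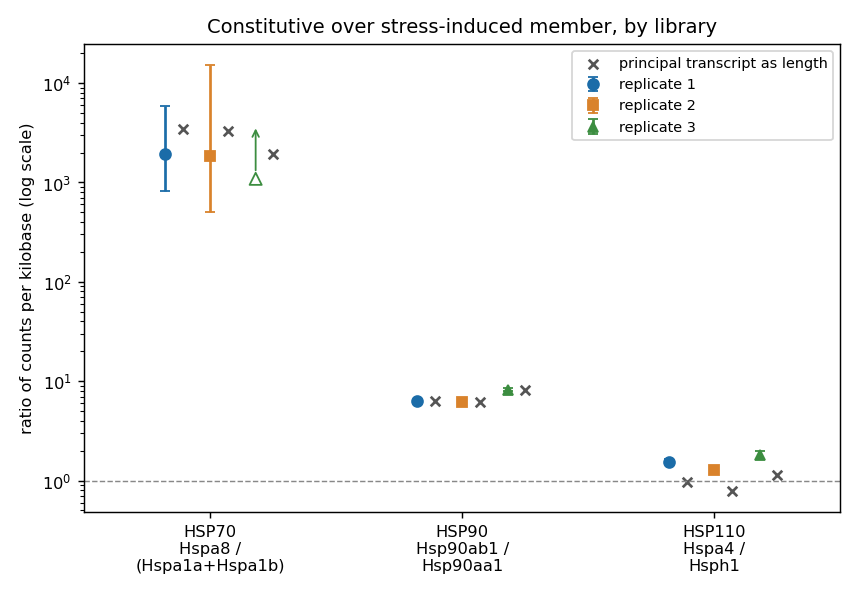
Ratio of the constitutive to the stress-induced member in counts per kilobase (vertical axis, log scale) for HSP70, HSP90 and HSP110, by library. Bars are exact 95% counting intervals, and grey crosses take the principal transcript as length in place of merged exons. The open symbol with an arrow is HSP70 in replicate 3 at a floor of 3 counts, as is its cross. The 95% interval of that library begins at 884. Over merged exons the ratios are 1088 (at that floor) to 1922 for HSP70, 6.18 to 8.22 for HSP90 and 1.26 to 1.80 for HSP110. The crosses for HSP110 lie at 0.972, 0.791 and 1.13, on both sides of the dashed line at 1.

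Among the other stress-induced genes, Dnajb1, an HSP40 that works with inducible HSP70, had 35.9, 26.7 and 18.8 TPM in replicates 1, 2 and 3. Bag3, a co-chaperone that directs HSP70 clients to autophagy, had 4.15, 16.5 and 4.17 TPM from 24, 54 and 17 counts. Bag3 was the member with the largest SD of log2(TPM + 1) (1.02) and was highest in replicate 2, whereas Hsp90aa1, Hsph1 and Dnajb1 were highest in replicate 1. Hspb1, a small heat shock protein, had 3, 0 and 1 counts; a floor of 3 counts stands for 1.29, 2.28 and 1.83 TPM, so no level above that floor was seen. Hspa2 had 6, 0 and 1 counts. Stress-induced genes thus differed widely: Hsp90aa1 was 23.5, 25.3 and 20.2 times as high as Dnajb1 per kilobase in replicates 1, 2 and 3, while 3 of the 7 lay near 0.

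The remaining cytosolic HSP40 and co-chaperone genes were all detected. Stip1, which bridges HSP70 and HSP90, had 421 TPM ± 134 (SD, n = 3), and Ahsa1, which activates the HSP90 ATPase, had 349 ± 123. Cdc37, which brings kinases to HSP90, had 52.1 TPM ± 10.4. Bag1, a nucleotide exchange factor, had 248, 209 and 173 TPM in replicates 1, 2 and 3 and a CV of 17.9%. Dnaja2 and Dnaja1, HSP40 partners of Hspa8, had 124 TPM ± 49.5 and 43.0 ± 14.0; Dnaja1 overlaps Smu1 by 608 bases on the opposite strand. Dnajc7, which binds both HSP70 and HSP90, had 77.8 ± 25.6, Hspa14, a ribosome-associated HSP70, had 42.5 ± 16.1, and Dnajb6 had 6.95 ± 2.86.

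The 6 listed subunits of TRiC, the ring-shaped chaperonin that folds actin and tubulin, were detected in every library with gene means of 124 to 452 TPM. Cct5 had 622, 454 and 279 TPM in replicates 1, 2 and 3, Cct2 had 513, 415 and 227, Cct4 had 256, 263 and 112, and Cct3 had 200, 182 and 91.3; these 4 are clear. Each was lowest in replicate 3. Cct7 (170, 119 and 82.3 TPM) overlaps Pradc1 on the opposite strand by 214 bases and was also lowest in replicate 3. Tcp1 had 430, 335 and 361 TPM and was lowest in replicate 2. Its level in replicate 3 was 0.840 of that in replicate 1, against 0.436 to 0.458 for the 4 clear subunits. Tcp1 overlaps Acat3, an acetyl-CoA acetyltransferase gene of the opposite strand, by 571 bases, and Acat3 had 2113, 2511 and 2661 TPM, highest in replicate 3. The part of Acat3 in the counts of Tcp1 was not tested. From the highest to the lowest subunit the levels spanned 1.97 ± 0.14 in log2(TPM + 1) (SD, n = 3), or 1.52 ± 0.18 over the 4 clear subunits. This span depended on gene length: the merged exons of Cct3 cover 6370 bases and its principal transcript 1977, against 2809 and 1853 for Cct5. With the principal transcript as length the span was 1.38 ± 0.51 over 6 subunits and 0.97 ± 0.29 over the clear ones, and in CPM, the share of a library's counts with no division by length, it was 1.33 ± 0.53 over 6 and 0.57 ± 0.26 over the clear ones. In CPM, Cct2 had 492 ± 149, Cct3 502 ± 150, Cct4 441 ± 153 and Cct5 634 ± 192 (SD, n = 3), and much of that spread was shared by the subunits. Within libraries Cct3 exceeded Cct4 by 92.3, 26.5 and 63.2 CPM, or 60.7 ± 33.0 (SD, n = 3). The difference Cct3 minus Cct2 was -18.7, 47.9 and 0.710 CPM and lay on both sides of 0, and so did Cct2 minus Cct4 (111, -21.4 and 62.5 CPM).

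**Figure D3:**
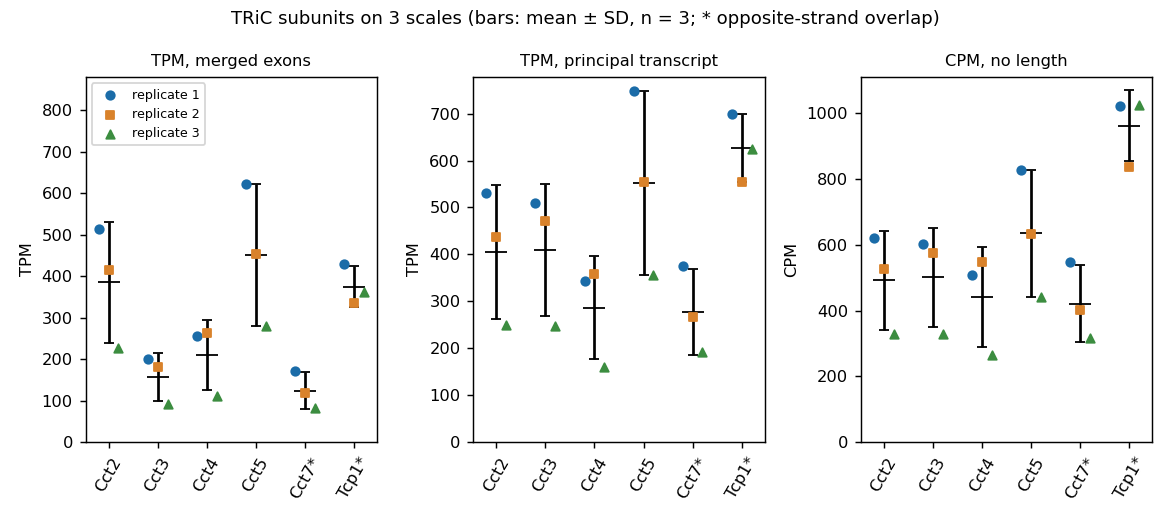
TRiC subunits in TPM over merged exons (left), TPM over the principal transcript (middle) and CPM (right); coloured symbols are libraries and black bars the mean ± SD (n = 3). Cct2, Cct3 and Cct4 draw together in CPM (492, 502 and 441), and Tcp1 is the subunit whose replicate 3 value does not drop with the others.

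Mitochondrial chaperones were abundant. Hspd1 and Hspe1, the HSP60 barrel and HSP10 lid of the matrix chaperonin, had 1057, 912 and 434 TPM and 352, 305 and 122 TPM in replicates 1, 2 and 3. They lie head to head on chromosome 1 and their first exons overlap by 112 bases. Per kilobase Hspd1 was 3.00, 2.99 and 3.57 times as high as Hspe1, with exact 95% counting intervals of 2.82 to 3.19, 2.74 to 3.28 and 3.15 to 4.06, so both genes moved nearly together between libraries. The size of this ratio depends on length: with the principal transcripts (2423 bases for Hspd1 and 774 for Hspe1, against 2642 and 1474 bases of merged exons) it was 1.72, 1.71 and 2.05. Transcripts of other genes hold 39.7% of the 50-base stretches of Hspd1 and 18.4% of those of Hspe1. Hspa9, the mitochondrial HSP70, had 409, 325 and 192 TPM, and Trap1, the mitochondrial HSP90, had 98.9 ± 32.3 TPM (SD, n = 3), an order of HSP60, HSP70, HSP90 in each library.

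The heat shock element bound by HSF1 is built of inverted GAA repeats. The promoter windows of RefSeq genes (GRCm38.p6, 250 bases before to 50 after the start) were searched on both strands for GAA, TTC and GAA in this order with any 2 bases between neighbours. Of 42 members 35 had at least 1 window, and Hsp90aa1, Hsp90ab1, Hspa8, Hspa9, Hspa13, Hsf1 and Cct4 had none. Some members had more than 1 window and were counted if any of them held the element. The element was found in 4 of 35 members (11.4%; Hspd1, Hspe1, Hsph1 and Dnajb6), against 179 of 27025 genes (0.662%). Of the 6 stress-induced genes with a window, 1 held it. In the Hspd1 window shown, the letters run over matches that begin 144 and 139 bases before the start that this window uses, and overlap each other. The same stretch, read on the other strand, lies in the Hspe1 window, so these members share it. In the Hsph1 window shown, the match begins 15 bases after the start. A further window of Hspd1 (chr1:55088194-55088493), not shown, does not hold the element. The counted Hspd1 exons, on the minus strand, begin at position 55088243, inside that further window. The matches in the window shown therefore lie downstream of the outermost Hspd1 start. The windows are shown, 5′ to 3′, with the element in capitals.
Hspd1, chr1:55087883-55088182 (minus strand): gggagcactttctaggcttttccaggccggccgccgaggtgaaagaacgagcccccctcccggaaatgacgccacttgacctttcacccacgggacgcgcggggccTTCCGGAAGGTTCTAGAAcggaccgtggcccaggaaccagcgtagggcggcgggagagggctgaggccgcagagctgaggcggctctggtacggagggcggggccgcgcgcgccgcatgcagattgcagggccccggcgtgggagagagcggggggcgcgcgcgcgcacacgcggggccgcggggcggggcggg
Hsph1, chr5:149636266-149636565 (minus strand): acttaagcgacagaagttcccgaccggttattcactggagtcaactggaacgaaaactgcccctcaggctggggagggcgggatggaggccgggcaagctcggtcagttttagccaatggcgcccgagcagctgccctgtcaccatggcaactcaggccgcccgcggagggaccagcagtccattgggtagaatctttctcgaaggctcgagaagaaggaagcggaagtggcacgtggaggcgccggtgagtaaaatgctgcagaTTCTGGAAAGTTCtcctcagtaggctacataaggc
Dnajb6, chr5:29735648-29735947 (plus strand): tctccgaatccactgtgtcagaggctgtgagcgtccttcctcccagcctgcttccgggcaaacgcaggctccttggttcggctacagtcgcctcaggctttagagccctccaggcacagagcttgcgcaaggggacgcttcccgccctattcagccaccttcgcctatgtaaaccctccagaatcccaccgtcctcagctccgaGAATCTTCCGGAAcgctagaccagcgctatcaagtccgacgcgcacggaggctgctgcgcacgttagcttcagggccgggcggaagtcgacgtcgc
The members with these letters did not share a level: Hspd1 averaged 801 TPM, Hspe1 260, Hsph1 128 and Dnajb6 6.95. A match is a description of the window, and no match says only that these exact letters are not in it.

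All 10 ER members were detected, with a median of 130 TPM, and 5 of them reached 100 TPM in every library. Calr had 840, 658 and 497 TPM in replicates 1, 2 and 3, and Canx, its membrane-bound partner calnexin, had 223, 190 and 122. Calr was 3.76, 3.45 and 4.07 times as high as Canx per kilobase, a log2 ratio of 1.91 ± 0.12 (SD, n = 3), the narrowest spread of the 10 ratios computed between members. Hspa5, the ER HSP70 known as BiP, had 449, 407 and 187 TPM. Hsp90b1, the ER HSP90 known as GRP94, had 472, 380 and 251 TPM, a level near that of Hspa5; their log2 ratio of Hspa5 to Hsp90b1 was -0.13 ± 0.27 (SD, n = 3) and lay on both sides of 0. With the principal transcripts as length Hspa5 was 0.768, 0.865 and 0.600 of Hsp90b1, below it in 3 of 3 libraries. Hsp90b1 overlaps 1810014B01Rik by 415 bases on the opposite strand. The cytosolic HSP70 Hspa8 was 3.29, 2.45 and 3.80 times as high as Hspa5 per kilobase of merged exons, and 5.13, 3.82 and 5.93 times as high with the principal transcripts as length. Among the disulfide isomerases, Pdia3, the partner of the lectin chaperones, had 271 TPM ± 113, Pdia6 82.0 ± 27.7 and Pdia4 72.9 ± 23.5 (SD, n = 3). The HSP40 partners of Hspa5 were lower: Dnajb11 had 78.7, 33.4 and 43.1 TPM and Dnajc3, an inhibitor of the kinase PERK as well, had 30.3, 16.8 and 15.6. Hspa13, a microsomal HSP70 relative, had 6.02, 2.00 and 2.45 TPM.

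ER chaperone genes are known to carry the ER stress response element. The same promoter windows were searched on both strands for it, as CCAAT, any 9 bases and CCACG. It was found in 6 of 35 members (17.1%), against 37 of 27025 genes (0.137%). The 6 were Calr, Canx, Dnajc3, Hsp90b1, Hspa5 and Pdia6, which are 6 of the 9 ER members with a window, and 0 of the 26 members of other groups held it. Hsp90b1 held it at 2 places, which begin 212 and 107 bases before the start and lie on opposite strands. In the other genes the match begins 162 (Calr), 145 (Canx), 105 (Dnajc3), 98 (Pdia6) and 65 (Hspa5) bases before the start. The windows are shown, 5′ to 3′, with the element in capitals; a run that begins with CGTGG is the element read on the other strand.
Hspa5, chr2:34771840-34772139 (plus strand): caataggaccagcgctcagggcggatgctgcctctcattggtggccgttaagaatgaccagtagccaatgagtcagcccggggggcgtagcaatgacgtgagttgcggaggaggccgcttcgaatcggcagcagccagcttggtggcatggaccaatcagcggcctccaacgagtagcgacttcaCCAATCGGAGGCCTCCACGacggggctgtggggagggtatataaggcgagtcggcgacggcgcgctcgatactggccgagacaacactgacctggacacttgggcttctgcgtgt
Hsp90b1, chr10:86705395-86705694 (minus strand): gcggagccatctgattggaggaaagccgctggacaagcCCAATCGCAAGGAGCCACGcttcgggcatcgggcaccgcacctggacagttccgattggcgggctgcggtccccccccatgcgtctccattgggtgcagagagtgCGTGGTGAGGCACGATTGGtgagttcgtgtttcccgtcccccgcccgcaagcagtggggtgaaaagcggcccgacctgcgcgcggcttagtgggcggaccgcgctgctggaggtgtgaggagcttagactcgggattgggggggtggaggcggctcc
Calr, chr8:84846882-84847181 (minus strand): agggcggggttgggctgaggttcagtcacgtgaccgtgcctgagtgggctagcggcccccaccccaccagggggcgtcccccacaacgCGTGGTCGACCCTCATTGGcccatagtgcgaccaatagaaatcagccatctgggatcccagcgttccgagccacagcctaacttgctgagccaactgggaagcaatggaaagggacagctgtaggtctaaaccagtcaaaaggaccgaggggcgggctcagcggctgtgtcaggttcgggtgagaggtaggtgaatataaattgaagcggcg
Canx, chr11:50325624-50325923 (minus strand): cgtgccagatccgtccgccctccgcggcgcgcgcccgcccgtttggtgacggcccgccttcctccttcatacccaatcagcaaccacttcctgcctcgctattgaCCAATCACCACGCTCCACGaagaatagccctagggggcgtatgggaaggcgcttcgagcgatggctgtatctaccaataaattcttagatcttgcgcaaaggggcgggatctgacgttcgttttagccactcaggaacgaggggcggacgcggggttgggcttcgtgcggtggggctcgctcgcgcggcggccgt
Pdia6, chr12:17266339-17266638 (plus strand): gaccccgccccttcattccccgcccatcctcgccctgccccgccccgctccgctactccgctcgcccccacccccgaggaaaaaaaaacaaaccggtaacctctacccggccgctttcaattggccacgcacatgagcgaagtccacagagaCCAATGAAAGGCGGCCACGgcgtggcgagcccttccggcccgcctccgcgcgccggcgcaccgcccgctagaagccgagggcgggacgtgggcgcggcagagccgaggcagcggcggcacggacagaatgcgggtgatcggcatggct
Dnajc3, chr14:118937682-118937981 (plus strand): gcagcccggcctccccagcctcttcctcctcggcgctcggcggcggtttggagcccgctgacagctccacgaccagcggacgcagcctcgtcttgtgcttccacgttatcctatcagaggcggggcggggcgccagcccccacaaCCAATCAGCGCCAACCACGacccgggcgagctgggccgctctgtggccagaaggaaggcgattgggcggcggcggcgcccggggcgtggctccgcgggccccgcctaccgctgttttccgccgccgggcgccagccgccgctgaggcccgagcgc
The genes with the element ranged from 20.9 TPM (Dnajc3) to 665 TPM (Calr), and Pdia3, Pdia4 and Dnajb11, whose windows lack these exact letters, lay within that range.

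Both heat shock factors lay below the median of the 42 members (126 TPM). Hsf1, at a mean of 32.8 TPM, lay above the stress-induced median of 8.28 TPM, and Hsf2, at 3.93 TPM, lay below it. Hsf1, the main activator of stress-induced chaperones, had 206, 64 and 91 counts in replicates 1, 2 and 3 (45.3, 24.9 and 28.4 TPM). Hsf2, a related factor, had 92, 69 and 29 counts (4.25, 5.63 and 1.90 TPM). The ratio of Hsf1 to Hsf2 per kilobase was 10.7, 4.42 and 14.9, with exact 95% counting intervals of 8.30 to 13.8, 3.09 to 6.30 and 9.74 to 23.5. It was lowest in replicate 2 beyond counting error. The merged exons of Hsf2 cover 9606 bases and its principal transcript 2604, and with principal transcripts as length the ratio was 2.80, 1.16 and 3.92. As plain counts it was 2.24, 0.928 and 3.14, so in replicate 2 the direction depended on the scale.

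Exons of 12 of the 42 members (28.6%) overlap exons of a gene on the opposite strand, against 4801 of 21764 coding genes (22.1%). The members are Hspa1a, Dnajb6, Dnajc7, Dnaja1, Tcp1, Cct7, Hspd1, Hspe1, Trap1, Hsp90b1, Pdia3 and Pdia6; the other 30 are clear. The overlap covers 0.573% of the exon bases of Pdia3, with Catsper2, up to 19.0% of those of Hspa1a. Besides Hspe1, which lies opposite the higher Hspd1, and the barely counted Hspa1a, 3 members had an opposite gene over 3 times as high in every library. 1810014B01Rik, annotated as a transcribed pseudogene, had 6.72, 9.46 and 14.5 times the TPM of Hsp90b1 in replicates 1, 2 and 3. Acat3 had 4.92, 7.50 and 7.38 times the TPM of Tcp1, and Cnp, an enzyme of cyclic nucleotide metabolism, had 3.33, 5.61 and 7.20 times the TPM of Dnajc7, which also overlaps Nkiras2 (1.00, 1.98 and 2.27 times). Dnase1 had 1.03, 1.49 and 2.82 times the TPM of Trap1, and Smu1 1.64, 1.28 and 1.02 times that of Dnaja1. Gm6297, the second opposite gene of Dnaja1, had 0, 2 and 2 counts. In the pairs with 1810014B01Rik, Acat3, Cnp, Nkiras2 and Dnase1 the ratio was lowest in replicate 1. The same held for Pradc1, Catsper2 and Gm6297, which lay below their members. With Smu1, Mrpl18 and Atp6v1c2, and for Hspe1 over Hspd1, the ratio was lowest in replicate 3, and with Gm5129 in replicate 2. The opposite gene was lower than the member in every library for Mrpl18 with Tcp1, Pradc1 with Cct7, Catsper2 with Pdia3 and Atp6v1c2 with Pdia6, and Gm5129 had 6, 0 and 4 counts opposite Dnajb6. The headers state that counting used strand setting 1, and the strand that the library kit keeps is not given in the sources used here; whether counts of either gene of a pair are reads of the other was not tested. Being clear removes overlap with an annotated gene but does not show on which strand the counted reads lay.

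**Figure D4:**
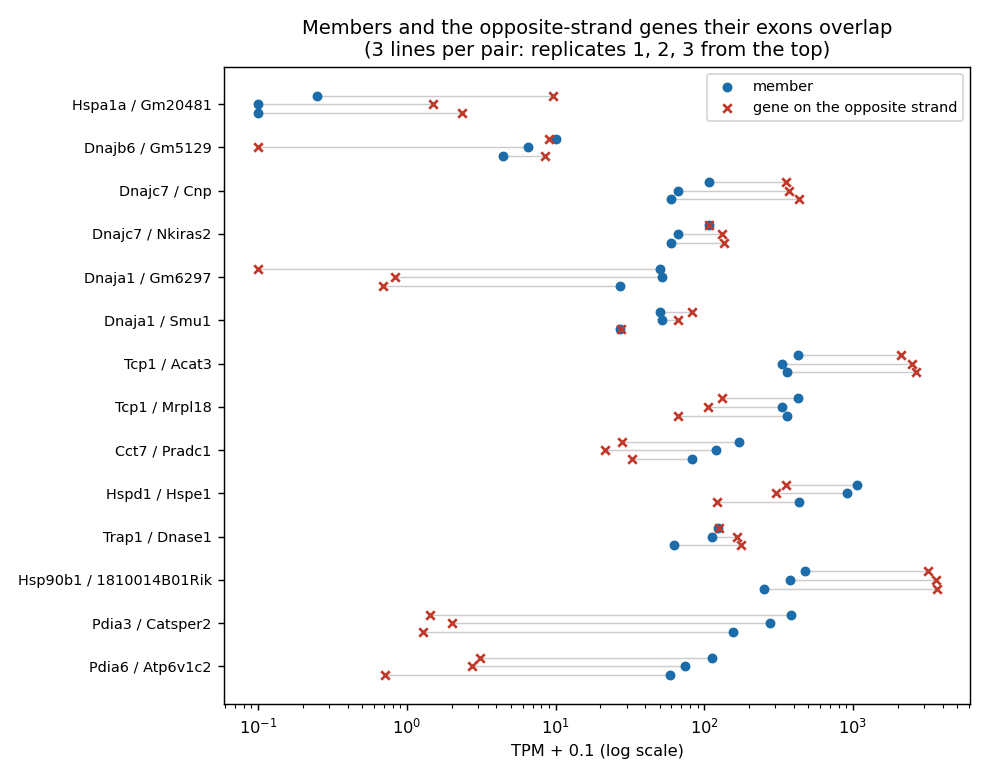
TPM + 0.1 (horizontal axis, log scale) of each overlapped member (circles) and of the opposite-strand gene that its exons overlap (crosses), with a line for each of replicates 1, 2 and 3 from the top; a value at 0.1 is a count of 0. Acat3, Cnp and 1810014B01Rik lie to the right of Tcp1, Dnajc7 and Hsp90b1 in all libraries, while Catsper2 and Atp6v1c2 lie far to the left of Pdia3 and Pdia6.

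Between libraries the members shifted together in TPM. Of 38 members with a mean TPM of at least 1, 33 were lowest in replicate 3 (86.8%), against 6709 of 9932 coding genes at that level (67.5%), and 32 were highest in replicate 1 (84.2%), against 5657 (57%). Over clear genes at that level 23 of 27 members were lowest in replicate 3 (85.2%), against 4659 of 6228 coding genes (74.8%). On the log2(TPM + 1) scale, with each gene's own mean taken off, the members' median was 0.41, 0.14 and -0.58 in replicates 1, 2 and 3, and that of the 9932 coding genes was 0.32, 0.11 and -0.41. This order is that of the share of TPM held by clear genes (28.7%, 24.6% and 15.6%). With TPM recomputed over clear coding genes alone, the median deviation of the 27 clear members was 0.03, 0.01 and -0.08, and that of 7234 clear coding genes 0.05, -0.04 and 0.01. The drop in replicate 3 was smaller than in TPM but remained under the other scalings: with edgeR TMM the clear members' median was 0.14, 0.04 and -0.22 and that of 6228 clear coding genes 0.12, 0.03 and -0.13, and with DESeq2 size factors 0.11, 0.04 and -0.19 for the members and 0.10, 0.02 and -0.10 for the genes. In the values recomputed over clear genes, which lie on a larger scale, Hsp90ab1 had 18525, 16990 and 20091 TPM and Hspa8 had 5139, 4044 and 4571. Canx had 777, 774 and 783, the steadiest of the clear members with an SD of log2(TPM + 1) of 0.01, and Calr had 2922, 2673 and 3190. On the recomputed scale these 4 genes were lowest in replicate 2 instead of replicate 3.

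Some members kept a difference between libraries on the recomputed scale. Bag3 had 14.5, 67.2 and 26.8 recomputed TPM in replicates 1, 2 and 3, highest in replicate 2. The ER genes Dnajb11 (274, 136 and 277), Dnajc3 (106, 68.1 and 100.4) and Hspa13 (20.9, 8.11 and 15.8) were lowest in replicate 2, as was Hsf1 (158, 101 and 182). The counts in replicate 2 were 138 for Dnajb11, 111 for Dnajc3, 15 for Hspa13 and 64 for Hsf1. Cct4 (891, 1068 and 718) and Dnaja2 (530, 618 and 426) were lowest in replicate 3 and highest in replicate 2. These members were chosen after their values were seen, and single libraries cannot be tested against each other. The median SD of log2(TPM + 1) was 0.527 over the 38 members with a mean TPM of at least 1 and 0.524 over the 9932 coding genes. In recomputed TPM it was 0.177 over the 30 clear members and 0.403 over the 7234 clear coding genes. These sets differ in level, with a median of 143 TPM over the members and 7.38 TPM over the genes, in TPM over all genes. The spread was not compared at matched levels. In TPM over all genes, the median SD over all 42 members was 0.524, and 0.230 without replicate 3. An SD above 1 was seen for 0 of the 34 members that averaged 10 TPM or more, against 139 of 5314 coding genes (2.62%). At so small a share, a count of 0 among 34 genes does not set the members apart. Bag3, with an SD of 1.02, averaged 8.28 TPM and so was not among them.

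**Figure D5:**
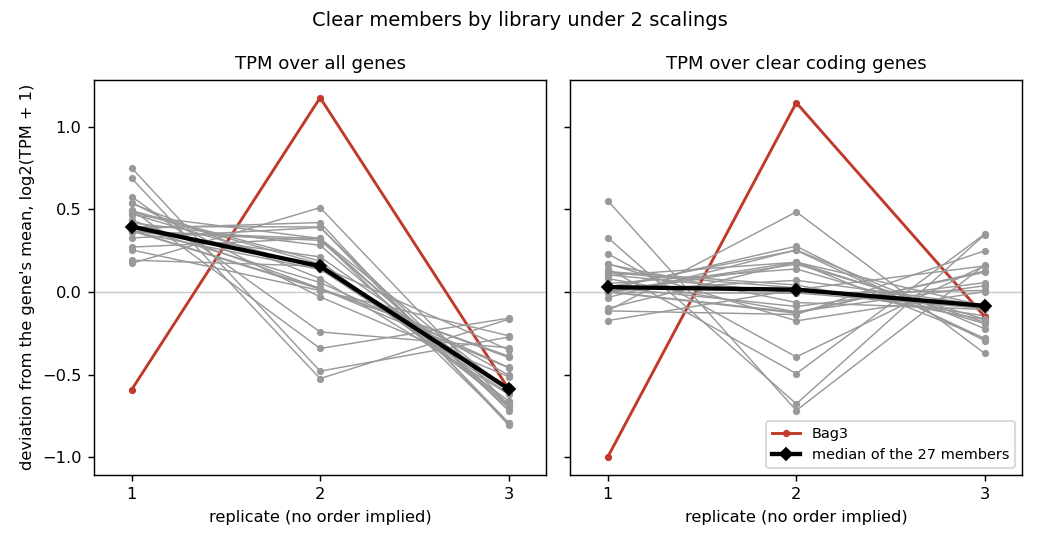
Deviation of log2(TPM + 1) from each gene's mean (vertical axis) in replicates 1, 2 and 3 for the 27 clear members with a mean TPM of at least 1, in TPM over all genes (left) and over clear coding genes (right); grey lines are genes, the black line their median, the red line Bag3. The median falls below 0 in replicate 3 on the left (-0.58) and stays near 0 on the right (-0.08), and Bag3 stands highest in replicate 2 in both panels.

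Other genes of the folding machinery, from 7 further lists of 81 genes, were mostly detected (64 of 81), against 8668 of 21764 coding genes (39.8%). Their median was 26.3 TPM, against 126 TPM for the 42 members. Of 10 further TRiC and prefoldin genes 9 were detected, led by Cct8 (406 TPM ± 151; SD, n = 3) and Cct6a (288 ± 116), the remaining subunits of the ring, which overlap opposite-strand exons. All 9 further HSP90 co-chaperones were detected, led by the ubiquitin ligase Stub1 (323 ± 35.0), which overlaps opposite-strand exons, and the prolyl isomerase Fkbp4 (217 ± 65.6). Of 26 further HSP70, HSP40 and BAG genes 22 were detected, led by the HSP70-binding St13 (195 ± 48.8) and Dnajc19 (177 ± 15.9), which overlaps opposite-strand exons. Small heat shock genes formed the exception: 1 of 9 was detected, Hspb6 at a mean of 6.63 TPM, which overlaps opposite-strand exons. Hspb11, next in level, averaged 5.22 TPM. Of 12 further ER genes 10 were detected, led by P4hb (158 ± 55.0), a disulfide isomerase, and Manf (158 ± 14.0), which overlaps opposite-strand exons. Of 9 regulators of the unfolded protein response 7 were detected, led by Atf4 (248 ± 87.0) and by Ddit3 (177 ± 32.7), which encodes CHOP and overlaps opposite-strand exons. All 6 further mitochondrial genes were detected, led by the protease genes Lonp1 (82.4 ± 26.3) and Clpp (71.7 ± 16.9).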

How the data were processed

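Total RNA libraries of 3 T-helper 1 replicates were analysed; the labels give total RNA as the molecule, but the cited library protocol carries poly(A) RNA in its name. Each deposited file holds unnormalized counts of genes; per the file headers, featureCounts v1.4.6-p4 counted read pairs with both ends mapped, strand setting 1, grouping the exons of each GENCODE vM13 gene on mm10, without options for multi-mapping reads. The sources used here give no aligner version. The merged exon length of each gene was deposited beside its count. TPM and CPM were computed here from the deposited counts.

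Genes were named from GENCODE vM21 (50376 of 50600) and strand overlaps computed from the deposited exon coordinates, in the same build. The members and lists were chosen with earlier results of these data known. Named genes are the 42 members, the 2 highest of each further list and the opposite-strand genes of members; others are said to be chosen later or serve as checks. With 1 group, no count test between conditions was possible. Ratios were tested by exact sign-flip permutation; intervals are exact binomial (95%). Shared 50-base stretches were counted in GENCODE vM21 transcripts, leaving out genes at the same locus. As a check for a repeated library, the chi-square of the counts was 14.2 to 32.8 times its degrees of freedom, so no pair agreed within sampling noise. The labels do not say whether the replicates came from separate animals. Xist and Ddx3y had 1110 and 0 counts in replicate 2, against 4 and 81 in replicate 3. The spread between libraries may be partly technical, which was not tested. The spread code was tested on simulated data. Alternatives were other scalings (edgeR TMM, DESeq2), lengths, pseudocounts, thresholds and each replicate left out. Software was R 4.3.3 with DESeq2 1.42.0 and edgeR 4.0.16, and Python 3.11.15 with SciPy 1.17.1, pandas 2.3.3, numpy 2.4.6 and matplotlib 3.10.9.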

Additional observations from a re-analysis of the deposited data

How the results depend on the processing

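Of 79 alternative values for 14 results, 1 value beyond its spread changed sign: the log2 ratio of Hspa4 to Hsph1, 0.61 as reported, was -0.069 with the principal transcript as length and 0.21 in CPM. That of Hspa5 to Hsp90b1, within its spread of 0, was -0.25 to 0.015 without single replicates. Of the remaining 78, 56 stayed within the spread between replicates or within 1.5 times of a count, and 22 moved further. The log2 ratio of Hsp90ab1 to Hsp90aa1 was 2.39 in CPM and 2.64 to 2.85 without single replicates. That of Hspa8 to the Hspa1 pair was 11.19 in CPM, 10.46 to 10.87 without single replicates and 11.46 with the principal transcript as length, a setting added after the data were seen. The constitutive minus stress-induced median was 3.41 to 4.30 with a replicate left out and 3.78 to 4.38 otherwise. The TRiC span was 1.33 in CPM, 1.89 to 2.02 without single replicates, 1.52 over clear genes and 1.38 with the principal transcript. Detected members numbered 38 with any replicate left out, 34 at a TPM of 5, 40 with any library and 27 of 30 over clear genes. In TPM over all genes, 27 of 30 clear members (90%) and 5325 of 15865 clear coding genes (33.6%) were detected. No share over coding genes is given for the other settings. The median SD was 0.230 to 0.650 with a replicate left out, the lowest without replicate 3, 0.177 over clear genes, 0.260 with TMM and 0.234 with DESeq2 size factors. No paired analysis was possible because there is 1 group. Depth limits Hspa1a, Hspa1b, Hspb1 and Hspa2, at 6 counts or fewer in each library. The reason for each of these moves was not tested.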
